A study of Homo sapiens with 9 samples.

Results

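This account follows 9 genes of MHC class I antigen presentation through a bulk RNA-seq experiment in the established human cell line MDA-MB-468, derived from a breast adenocarcinoma. The genes are HLA-B, HLA-C, HLA-E, HLA-F, B2M, TAP1, TAP2, TAPBP and NLRC5. They were taken by symbol from a table of 56809 genes, and each symbol matched 1 row. All 9 passed the filter on low counts and are among the 14709 genes tested. The control group carried the empty lentiviral hairpin vector pSicoR, and the other groups carried the hairpins shLMO2-1 or shLMO2-2, which are named for the transcriptional cofactor LMO2. Each group had 3 libraries, made from 200000 cells each, of this cell line alone. All 3 groups were infected, so no uninfected cells are compared here. The labels do not say whether the libraries of a group came from separate cultures or infections, and the time after infection is not given in the sources used here. The p-values therefore measure the spread between these libraries, which may be technical.

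MHC class I molecules show peptides from inside the cell to CD8 T cells and natural killer cells. Peptides cut by the proteasome are carried into the endoplasmic reticulum by the transporter TAP1-TAP2, tapasin (TAPBP) holds the transporter beside an empty class I molecule, and the loaded complex of a heavy chain (HLA-B, HLA-C, HLA-E or HLA-F) with beta-2 microglobulin (B2M) travels to the surface. NLRC5 is the transactivator of class I promoters, and interferon gamma, in part through IRF1, raises most genes of the pathway. Loss of class I presentation is a known route by which breast and other cancers escape T cells.

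Library totals lay between 15494486 and 23069456 estimated counts. Control replicate 1 stood apart from the other libraries. On the first principal component of log2 CPM, which held 26.8% of the variance, it lay at −42.6 and the other controls at −18.2 and −20.6. It was also the lowest of the 3 controls in 7 of the 9 genes, so results that rest on it are given with and without it. LMO2, the hairpins' target, was rare, with 4, 35 and 19 counts in control, 2, 1 and 6 in shLMO2-1 and 1, 4 and 3 in shLMO2-2. Its adjusted p (edgeR's quasi-likelihood test, Benjamini-Hochberg over the genes tested) was 0.0907 in shLMO2-1 and 0.0441 in shLMO2-2. The labelled cell type was checked against markers. All 5 epithelial markers (EPCAM, CDH1, KRT8, KRT18 and KRT19) were detected, with a summed level of 4403 to 5333 CPM for control, 5434 to 6472 for shLMO2-1 and 6105 to 7110 for shLMO2-2. That sum was higher in each hairpin library than in each control. It was carried by the 3 keratins, while mean CDH1 was 317 CPM for control, 295 for shLMO2-1 and 287 for shLMO2-2 (lower in each hairpin library than in each control) and mean EPCAM was 432, 389 and 407. The part of these markers in the results below was not tested. Of 5 leukocyte markers, 2 were at 0 in all libraries, CD3E among them. The 5 summed to 5.45 to 7.38 CPM for control, 5.29 to 7.38 for shLMO2-1 and 4.78 to 5.15 for shLMO2-2.

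Of the 9 genes, 7 lie on chromosome 6, in or beside the major histocompatibility complex. In GENCODE 29 (GRCh38) HLA-F spans chr6:29722775-29738528 and HLA-E chr6:30489467-30494205, both on the plus strand. HLA-C spans chr6:31268749-31272130 and HLA-B chr6:31269491-31357188 on the minus strand, and the annotated HLA-B span, with its longest transcripts, takes in most of HLA-C. TAP2 spans chr6:32821833-32838780, TAP1 chr6:32845209-32853978 and TAPBP chr6:33299694-33314387, all on the minus strand. B2M lies at chr15:44711487-44718877 and NLRC5 at chr16:56989485-57083531, both on the plus strand. The GENCODE 29 start of TAP1 lies 183 bases from that of PSMB9, an immunoproteasome subunit on the opposite strand.

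The promoters of these genes carry short motifs that are known to be read by the class I enhanceosome and by interferon-regulated factors. RefSeq promoters (GRCh38.p14, 250 bases before to 50 after a start site) matched 7 of the 9 genes. The motifs searched on both strands were CCAAT (bound by NF-Y, the Y box when reversed), TGACG (core of the X2 site bound by CREB and ATF proteins), GAAANNGAA (core of the interferon-stimulated response element), GGGANTCCC (core of the kappa B site of enhancer A) and TTCNNNGAA (a STAT site). The long stretches of HLA-B, HLA-C and B2M are shown as the promoters of both classical heavy chains and of the light chain they pair with. They run from 180 bases before the start site towards it, with exact matches to the 5 motifs in capitals. Variants of a site were not counted, so a gene without a match may still hold such a site.
HLA-B, chr6:31357210-31357359, minus strand: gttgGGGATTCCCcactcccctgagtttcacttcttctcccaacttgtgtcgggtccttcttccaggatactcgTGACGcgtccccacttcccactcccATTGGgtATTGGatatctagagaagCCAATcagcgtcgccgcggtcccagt
HLA-C, chr6:31272131-31272272, minus strand: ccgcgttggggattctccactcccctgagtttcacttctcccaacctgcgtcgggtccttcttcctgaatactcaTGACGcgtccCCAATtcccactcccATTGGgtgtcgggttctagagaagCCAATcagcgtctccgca
B2M, chr15:44711337-44711486, plus strand: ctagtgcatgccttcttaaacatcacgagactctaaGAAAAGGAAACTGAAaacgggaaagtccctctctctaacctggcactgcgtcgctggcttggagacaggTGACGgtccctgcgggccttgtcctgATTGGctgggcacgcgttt

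In HLA-B and HLA-C a TGACG match stood 106 and 105 bases before the start, and a CCAAT match on the gene's own strand stood 56 bases before it in both. B2M held TGACG 75 bases and a reversed CCAAT 49 bases before its start. CCAAT matched in 5 of the 7 genes (HLA-B, HLA-C, HLA-F, B2M and TAP1), against 34.6% of all 35116 promoters of this length, and TGACG in 4 (HLA-B, HLA-C, B2M and TAP2), against 24.6%. The kappa B core matched exactly in HLA-B alone of the 7, against 0.877% of all promoters. The HLA-C stretch holds gggattctc, a close variant that was not counted. The STAT motif matched in 1 gene, TAP1, in the window of its other RefSeq start site, against 7.66%.

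The interferon-stimulated response element core matched in 5 of the 7 genes (HLA-F, B2M, TAP1, TAP2 and TAPBP), against 8.11% of all promoters. The 30 bases around it are shown for TAP1, the gene whose level changed, and for its partner TAP2 and for HLA-F. TAP1, B2M and TAPBP each held 2 overlapping matches. In TAP1 and HLA-F the match is on the opposite strand, and in GENCODE 29 these 3 windows touch annotated exons at the start of the gene. For TAP1 and HLA-F the RefSeq start used here lies further into the gene than the GENCODE 29 start. Their windows therefore fall inside the GENCODE 29 span.
TAP1, chr6:32853815-32853844, minus strand: ggccgctTTCGATTTCGCTTTCccctaaat
TAP2, chr6:32838778-32838807, minus strand: ctggggaagcGAAAGCGAAagctgcccgag
HLA-F, chr6:29723269-29723298, plus strand: tccccagagtTTCTCTTTCtctcccaaccc

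A comparison of level between genes needs a value per length, so counts per kilobase of the principal transcript were scaled to a common total in each library (TPM, computed here). In control, B2M was the most abundant of the 9, at 733 ± 15.2 TPM (SD, n = 3). TAPBP followed at 331 ± 30.8, HLA-C at 323 ± 27.8, HLA-B at 265 ± 16.5, HLA-E at 250 ± 22.1, TAP1 at 161 ± 15.9, TAP2 at 101 ± 3.79 and HLA-F at 64.2 ± 8.4. NLRC5, the transactivator, was the lowest at 4.84 ± 0.655. Neighbours in this order whose control libraries overlapped were TAPBP with HLA-C and HLA-B with HLA-E, so neither pair can be ordered. With the union of a gene's exons as its length the order of both pairs turned, and B2M stood at 339 TPM, below HLA-E at 361. HLA-C then stood at 327, HLA-B at 222 and TAPBP at 203, so TAPBP fell below both chains and HLA-E rose above all. The order among these genes therefore depends on the length used.

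**Figure D1:**
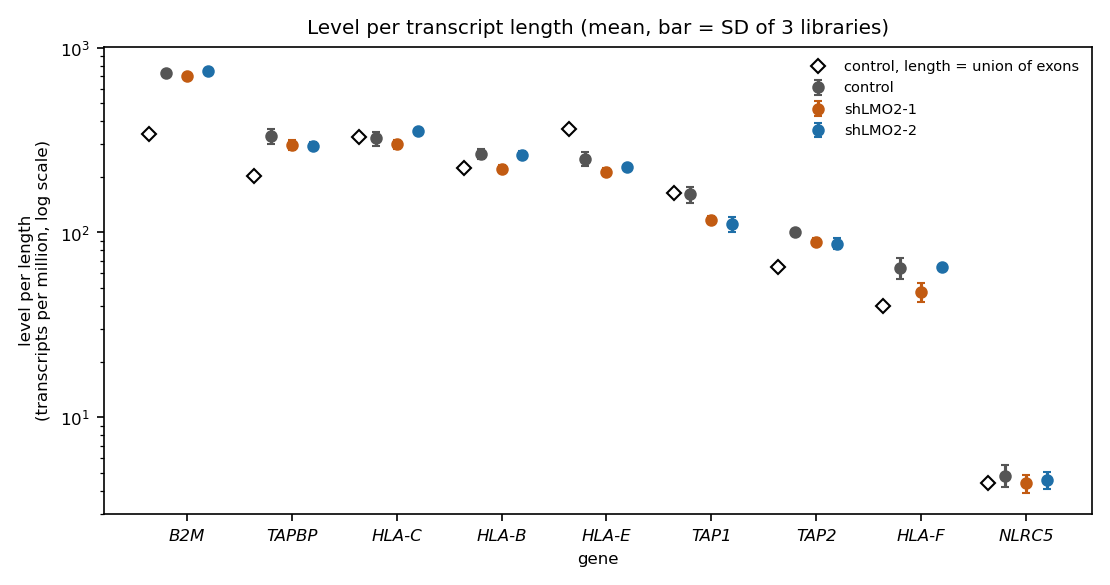
Level per transcript length of the 9 genes (TPM, log scale) as the mean of 3 libraries with the SD, by group, with open diamonds for the control mean when the union of exons is the length. B2M is highest at 733 and NLRC5 lowest at 4.84 TPM in control with the principal transcript.

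TAP1, the ABC-transporter subunit that pairs with TAP2 to pump peptides, fell with both hairpins. All further levels are CPM on TMM-scaled library totals, and compare libraries, not genes. TAP1 stood at 175, 231 and 195 CPM in control replicates 1 to 3, at 155, 153 and 150 in shLMO2-1, and at 159, 132 and 157 in shLMO2-2. The 6 hairpin libraries were all below the 3 controls, and control replicate 2 was the highest of the 9. Group means were 201 ± 27.9 CPM for control, 152 ± 2.73 for shLMO2-1 and 149 ± 15.1 for shLMO2-2 (SD, n = 3). The log2 fold change was −0.40 (SE 0.101, 0.76-fold, adjusted p = 0.0359, edgeR) in shLMO2-1 and −0.43 (SE 0.101, 0.743-fold, adjusted p = 0.0261, edgeR) in shLMO2-2. These comparisons share the 3 control libraries. For the mean of both hairpins it was −0.41 (95% interval −0.58 to −0.24, adjusted p = 0.0117, edgeR). Between the hairpins TAP1 differed by −0.03 on the log2 scale (95% interval −0.23 to 0.17). In such bulk RNA, fewer cells that express a gene and less RNA per cell cannot be told apart.

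The TAP1 call for each hairpin alone depended on single libraries. For shLMO2-1 it was lost without control replicate 2 (−0.28, adjusted p = 0.0935, edgeR), control replicate 3 (−0.42, 0.0825), or any shLMO2-1 library (−0.41, 0.0877; −0.40, 0.104; −0.38, 0.105 for replicates 1 to 3). For shLMO2-2 it was lost without control replicate 2 (−0.32, adjusted p = 0.0587, edgeR), control replicate 3 (−0.45, 0.0644), shLMO2-2 replicate 2 (−0.35, 0.0938) or shLMO2-2 replicate 3 (−0.47, 0.056). Without control replicate 1 it was larger, at −0.49 (0.00822) and −0.52 (0.00623). The mean of both hairpins stayed past the threshold without each of the 9 libraries in turn and under each of the other settings run, between −0.51 and −0.30. TAP1 overlaps the long noncoding RNA PSMB8-AS1 on the other strand, which shares 14.7% of the 31-letter words of the TAP1 transcript and was counted at 3.8% to 5.41% of TAP1's level. The use of strand is not given in the sources used here, so reads of that overlap are uncertain.

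TAP2, the other subunit of the transporter, moved less than TAP1. TAP2 stood at 106, 108 and 106 CPM in control, at 95.7, 100 and 97.8 in shLMO2-1, and at 104, 92.7 and 99.2 in shLMO2-2. All 6 hairpin libraries again lay below all 3 controls. The log2 fold change was −0.12 (95% interval −0.24 to 0.00) in shLMO2-1 and −0.11 (−0.23 to 0.01) in shLMO2-2, and neither passed the threshold (adjusted p = 0.27 and 0.312, edgeR). The ratio of TAP1 to TAP2 counts was 1.88 ± 0.248 for control, 1.56 ± 0.0551 for shLMO2-1 and 1.51 ± 0.0808 for shLMO2-2 (SD, n = 3). It ranged from 1.66 to 2.15 in control and from 1.42 to 1.62 in the hairpin libraries, with no overlap. The ratio of TAP1 to TAPBP was also lower in each hairpin library, by a narrow gap (lowest control 0.635, highest shLMO2-2 0.634). The ratio of TAP1 to PSMB9 was 7.42 for control, 5.75 for shLMO2-1 and 6.28 for shLMO2-2, and control overlapped shLMO2-1. The gene model AL669918.1 holds 80.4% of the words of the TAP2 transcript, but was counted at 0% to 6.25% of TAP2's level. Tapasin (TAPBP), which bridges the transporter and the heavy chain, stood at 277, 255 and 254 CPM in control, at 247, 252 and 240 in shLMO2-1, and at 255, 254 and 248 in shLMO2-2. Its log2 fold changes were −0.09 and −0.05 and did not pass (adjusted p = 0.386 and 0.599, edgeR).

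**Figure D2:**
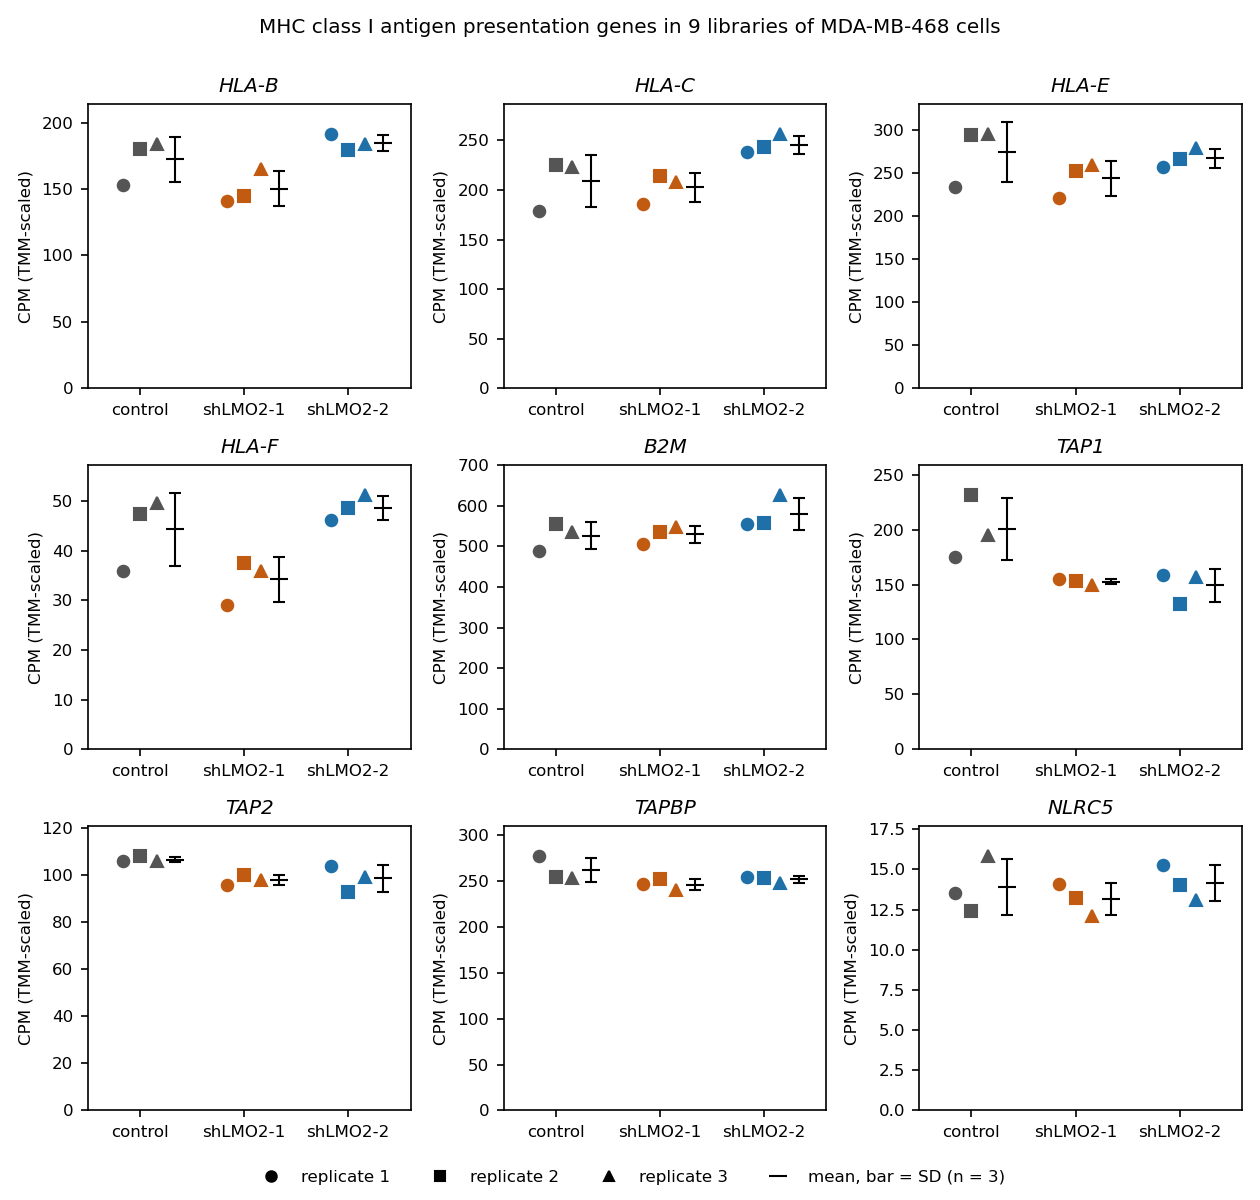
CPM on TMM-scaled totals of the 9 genes in each library, with the group mean and SD (n = 3) beside the points and each axis starting at 0. The 6 hairpin libraries of TAP1 lie between 132 and 159 CPM, below the controls at 175 to 231.

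None of the 4 heavy chains passed the threshold in any of the 4 comparisons, and in 3 of them (HLA-B, HLA-C and HLA-F) the values of the hairpins had opposite signs. HLA-B, a classical heavy chain, stood at 153, 180 and 184 CPM in control, at 141, 145 and 165 in shLMO2-1, and at 191, 179 and 184 in shLMO2-2. HLA-C, the other classical chain here and a ligand of natural killer cell receptors, stood at 179, 225 and 223 CPM in control, at 186, 214 and 208 in shLMO2-1, and at 238, 243 and 256 in shLMO2-2. In both genes each shLMO2-2 library was above each shLMO2-1 library, and control replicate 1 was below the other controls. Against control, HLA-B had a log2 fold change of −0.20 (SE 0.085, adjusted p = 0.175, edgeR) in shLMO2-1 and 0.10 (SE 0.084, adjusted p = 0.524) in shLMO2-2. HLA-C had −0.05 (SE 0.091, adjusted p = 0.816, edgeR) and 0.23 (SE 0.091, adjusted p = 0.142). From shLMO2-1 to shLMO2-2 the log2 difference was 0.30 in HLA-B (95% interval 0.13 to 0.46) and 0.28 in HLA-C (0.10 to 0.45), with adjusted p = 0.183 and 0.277 (edgeR). Of its 31-letter words, HLA-B shares 32.5% with some other gene, 10.8% with HLA-C and 20.8% with the pseudogene AL671883.2, which was counted at no more than 0.159% of HLA-B's level. HLA-C shares 20.2% with some other gene and 11.4% with HLA-B, so the split of those reads is uncertain.

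HLA-E and HLA-F are nonclassical heavy chains. HLA-E, which shows leader peptides of other class I chains to the NKG2A receptor, stood at 234, 294 and 295 CPM in control, at 221, 252 and 259 in shLMO2-1, and at 257, 266 and 279 in shLMO2-2. The groups overlapped in every comparison, and the log2 fold changes were −0.17 and −0.04 (adjusted p = 0.302 and 0.848, edgeR). HLA-F was the least abundant chain, at 35.9, 47.3 and 49.6 CPM in control, at 29.1, 37.6 and 35.9 in shLMO2-1, and at 46.1, 48.5 and 51.1 in shLMO2-2. Its shLMO2-2 libraries were all above its shLMO2-1 libraries, and control replicate 1 lay within the shLMO2-1 range. The log2 fold change of HLA-F was −0.37 (SE 0.129, adjusted p = 0.102, edgeR) in shLMO2-1 and 0.13 (SE 0.126, adjusted p = 0.563) in shLMO2-2. The difference from shLMO2-1 to shLMO2-2 was the widest of the 9 genes, at 0.51 (95% interval 0.26 to 0.76, adjusted p = 0.125, edgeR). HLA-F shares 49.2% of its words with some other gene. The pseudogene AL645939.1 holds 28.8% of all HLA-F words and was counted at up to 0.935% of HLA-F's level.

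Several of these values rested on control replicate 1. Without it, 4 of the 9 genes were called lower in shLMO2-1, where 4.33% of the 14972 genes then tested were called lower. They were TAP1 (above), HLA-B (−0.28, adjusted p = 0.0368, edgeR), HLA-E (−0.28, 0.0357) and HLA-F (−0.51, 0.0136). In shLMO2-2 the fold changes of the 4 chains were then 0.01 in HLA-B, 0.12 in HLA-C, −0.15 in HLA-E and −0.004 in HLA-F, and none passed (adjusted p from 0.249 to 0.987, edgeR). HLA-F was then also called between the hairpins (0.51, adjusted p = 0.0232, edgeR). The HLA-F difference between the hairpins was called as well with no filter on low counts (0.000727), with only the groups compared (0.0409) and with DESeq2 (0.0179).

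Because the chains share part of their sequence (3.61% to 13.7% of a chain's 31-letter words occur in another of the 9 genes), the 4 rows were also summed. The sum stood at 603, 747 and 752 CPM in control, at 578, 649 and 668 in shLMO2-1, and at 732, 736 and 769 in shLMO2-2. Group means of the sum were 700 ± 84.7 CPM for control, 632 ± 47.5 for shLMO2-1 and 746 ± 20.4 for shLMO2-2 (SD, n = 3). Both hairpin groups overlapped control, and each shLMO2-2 library was above each shLMO2-1 library. As log2 ratios of group means, the sum differed by −0.15 in shLMO2-1, by 0.09 in shLMO2-2 and by 0.24 from shLMO2-1 to shLMO2-2. Without control replicate 1 those against control were −0.25 and −0.006. Adding 12 rows of class I pseudogenes and HLA-G raised the group means only to 703, 635 and 750 CPM. Within the chains, the ratio of HLA-F to HLA-C counts was 0.211 ± 0.0105 for control, 0.168 ± 0.0102 for shLMO2-1 and 0.198 ± 0.00346 for shLMO2-2. No 2 groups overlapped, but the lowest control (0.201) lay just above the highest shLMO2-2 library (0.2). The ratio of HLA-B to HLA-C was 0.827 for control, 0.743 for shLMO2-1 and 0.753 for shLMO2-2. In that ratio shLMO2-2 overlapped both other groups.

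B2M, the light chain that every class I molecule needs, rested on 8305 to 13914 counts a library. It stood at 489, 555 and 534 CPM in control, at 506, 534 and 548 in shLMO2-1, and at 554, 558 and 625 in shLMO2-2. The shLMO2-1 libraries lay within the control range, and shLMO2-2 replicate 3 was the highest of the 9. The log2 fold change was 0.008 in shLMO2-1 (95% interval −0.12 to 0.14) and 0.14 in shLMO2-2 (0.01 to 0.27), and neither passed (adjusted p = 0.958 and 0.236, edgeR). The interval in shLMO2-2 left out 0 although the unadjusted p was 0.0661 (edgeR). Intervals here use a normal distribution and are narrower than the test itself would give. The value in shLMO2-1 was −0.002 with upper-quartile scaling and −0.029 with total counts, so it has no direction. B2M, TAPBP and NLRC5 share no 31-letter word with another gene.

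NLRC5, the transactivator, rested on 184 to 352 counts a library, where counting error alone gives a coefficient of variation of up to 7.37%. It stood at 13.5, 12.4 and 15.8 CPM in control, at 14.1, 13.2 and 12.1 in shLMO2-1, and at 15.3, 14 and 13.1 in shLMO2-2. The 3 groups overlapped throughout. The log2 fold change was −0.08 (95% interval −0.32 to 0.17) in shLMO2-1 and 0.027 (−0.21 to 0.26) in shLMO2-2, with adjusted p = 0.765 and 0.915 (edgeR). The latter was −0.02 with total-count scaling.

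**Figure D3:**
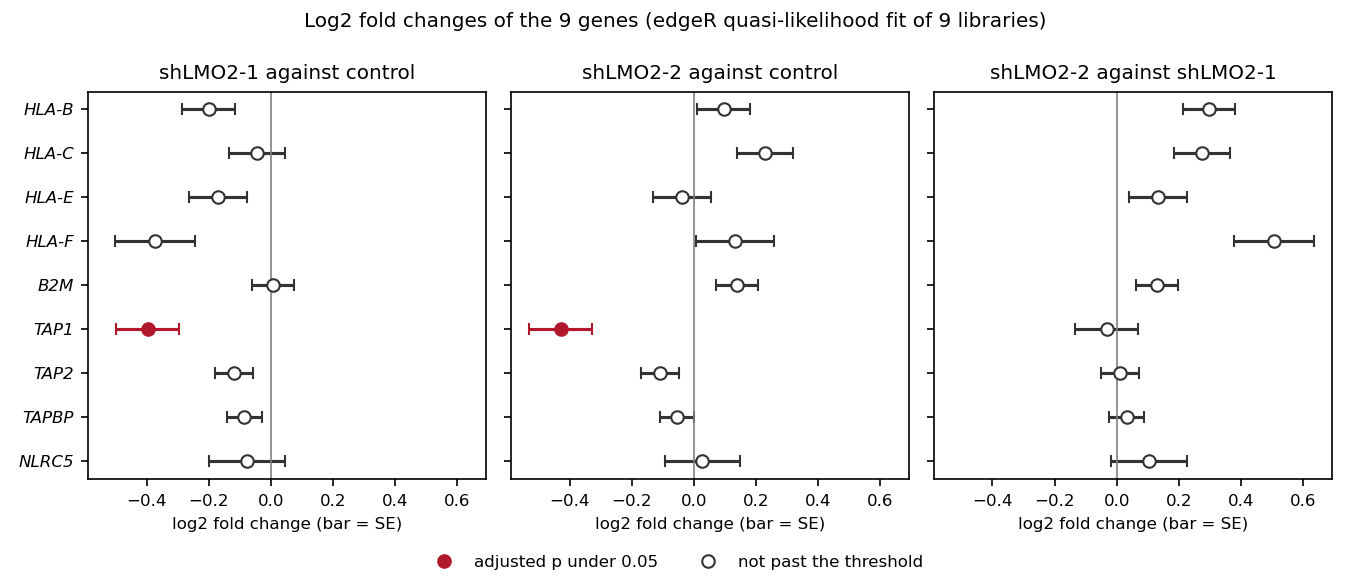
Log2 fold change of the 9 genes in 3 comparisons from edgeR's quasi-likelihood fit of 9 libraries, with the SE as bars and filled points for an adjusted p under 0.05. TAP1 is the filled point in each comparison with control, at −0.40 and −0.43, and no gene is filled between the hairpins.

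Counted together, 1 of the 9 genes was called in shLMO2-1 and 1 in shLMO2-2, TAP1 in both. Among all genes tested, 8.42% and 8.97% were called, so these counts are near the background. The mean of both hairpins called 1 of 9, against 12.4% of all genes, and the comparison between the hairpins called 0 of 9 by edgeR, against 0.768%. At an unadjusted p under 0.05 the latter held 3 of the 9 (HLA-B, HLA-C and HLA-F), against 10.6% of all genes, and DESeq2 called 1 (HLA-F), against 2.15%. Called lower, where TAP1 falls, were 3.88% of all genes in shLMO2-1, 4.04% in shLMO2-2 and 5.93% in the mean. The libraries of shLMO2-1 and control did not overlap in 3 of the 9 genes (TAP1, TAP2 and TAPBP, all lower), against 28.3% of all genes. Those of shLMO2-2 and control did not overlap in 3 (HLA-C higher, TAP1 and TAP2 lower), against 29.9%. In 2 genes (TAP1 and TAP2) control was separate from the 6 hairpin libraries taken as 1 group, against 16.7%. Between the hairpins 4 did not overlap (HLA-B, HLA-C, HLA-F and B2M, all higher in shLMO2-2), against 18.1%. The median log2 fold change of the 9 was −0.12 in shLMO2-1, 0.027 in shLMO2-2 and 0.13 from shLMO2-1 to shLMO2-2, beside 0.001, 0 and −0.001 over all genes.

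The 9 genes did not vary together as a block. Across the 9 libraries, the log2 CPM of HLA-C and B2M had a Pearson r of 0.905 and HLA-B and HLA-F of 0.896, and the 6 pairs among the 4 chains lay between 0.731 and 0.896. TAP1 and TAP2 had an r of 0.854. TAP1 and the heavy chains lay between −0.108 and 0.473, and B2M and TAPBP at −0.511. These are descriptions over 9 libraries that share their scaling and, for the chains, sequence. NLRC5 stayed between −0.179 and 0.275 with each of the other 8 genes.

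**Figure D4:**
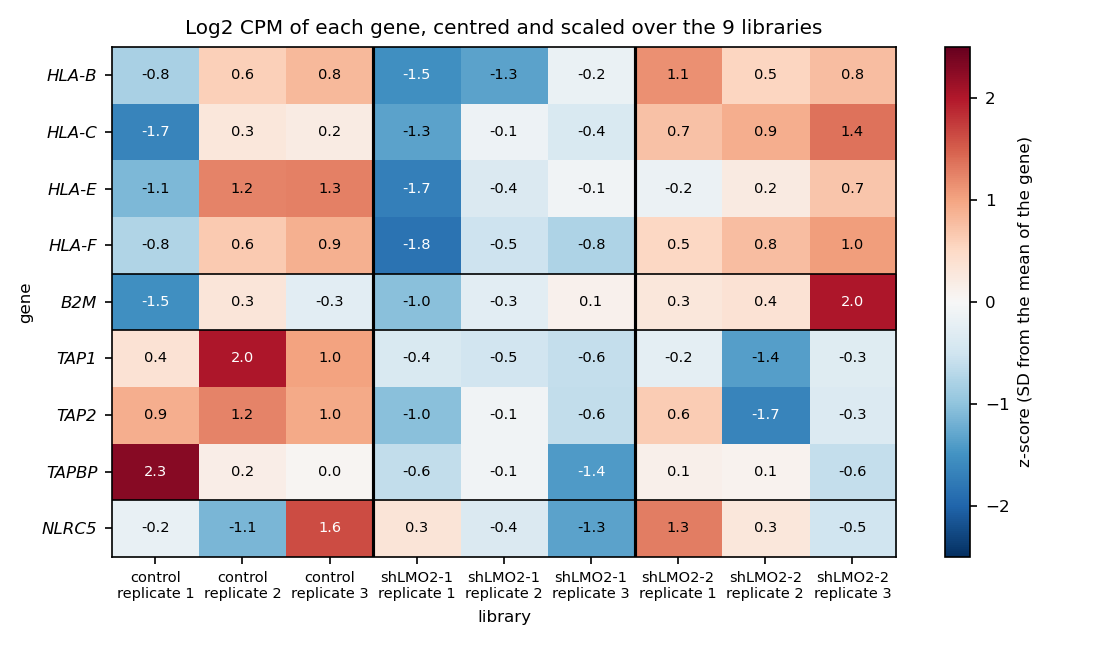
Log2 CPM of each gene (rows) in each library (columns), centred on the gene's mean over the 9 libraries and divided by its SD. The 4 heavy chains and B2M are low in control replicate 1 and shLMO2-1 replicate 1, and TAP1 and TAP2 are positive in the 3 controls.

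The mean of the 9 centred profiles was −0.279, 0.596 and 0.73 SD in control replicates 1 to 3, between −1.02 and −0.403 in shLMO2-1, and between 0.018 and 0.479 in shLMO2-2. The 5 tested genes outside the 9 whose log2 CPM followed this mean most closely over the 9 libraries were TTC39A (r = 0.958), FAM84A (0.957), MANEAL (0.956), LINC00458 (0.946) and KHK (0.946), the last a fructose-metabolising kinase. MANEAL stood at 160, 137 and 160 CPM on average in control, shLMO2-1 and shLMO2-2, and KHK at 21.7, 16.8 and 22.3. The likeness ranks 14709 genes on 9 points and is a description only.

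A further 55 genes of the pathway and its control were listed, of which 46 were tested. In shLMO2-1, 2 of the 46 were called higher (PSME2 and MICB), where 4.54% of all genes were. Another 3 were called lower (HFE and HLA-DMA among them), where 3.88% of all genes were. In shLMO2-2, 2 were called higher (PSME2 and TYK2), where 4.94% of all genes were, and 2 lower (IFNGR1 and IRF1), where 4.04% were. For the mean of both hairpins 3 were called higher (PSME2, MICB and TYK2), where 6.47% of all genes were. Another 4 were called lower (IFNGR1, IRF1 and HLA-DMA among them), where 5.93% of all genes were. In either direction 5, 4 and 7 of the 46 were called in these comparisons, against 8.42%, 8.97% and 12.4% of all genes. These counts are near the background. Between the hairpins IFNGR1 alone of the 46 was called, against 0.768% of all genes. The median log2 fold change of the 46 was −0.017 in shLMO2-1 and −0.042 in shLMO2-2.

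Peptide supply showed 1 called gene. PSME2, a subunit of the PA28 activator that opens the proteasome, stood at 59.8, 70.6 and 61.1 CPM in control, at 78.0, 78.3 and 90.4 in shLMO2-1, and at 91.1, 83.1 and 90.6 in shLMO2-2. All 6 hairpin libraries were above all 3 controls. It rose by 0.36 (SE 0.087, adjusted p = 0.0277, edgeR) and 0.47 (SE 0.086, adjusted p = 0.00881) on the log2 scale. The shLMO2-1 call was lost without control replicate 1 (0.31, adjusted p = 0.0532, edgeR), control replicate 3 (0.33, 0.102), shLMO2-1 replicate 2 (0.40, 0.0597) or shLMO2-1 replicate 3 (0.29, 0.102), and with only the groups compared (0.36, 0.0649). Its partner PSME1 did not pass, at −0.025 and 0.28 (adjusted p = 0.9 and 0.0618, edgeR). The inducible catalytic subunits PSMB8, PSMB9 and PSMB10 did not pass either, and PSMB9, which starts beside TAP1, had values of −0.009 and −0.21 (adjusted p = 0.983 and 0.508, edgeR). No gene passed among the 3 constitutive beta subunits, the trimming peptidases ERAP1 and ERAP2, or the 4 chaperones of the loading complex.

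Interferon signalling genes moved in both directions. IFNGR1, the ligand-binding chain of the interferon gamma receptor, stood at 230, 248 and 250 CPM in control, at 226, 215 and 210 in shLMO2-1, and at 180, 177 and 172 in shLMO2-2. The 3 groups did not overlap, with shLMO2-2 lowest. It fell by 0.46 on the log2 scale in shLMO2-2 (SE 0.058, adjusted p = 0.00135, edgeR), and had −0.16 in shLMO2-1 (adjusted p = 0.113). The difference between the hairpins was −0.30 (SE 0.059, adjusted p = 0.0462, edgeR). That last call was lost with upper-quartile scaling (adjusted p = 0.063, edgeR) and without each of the libraries other than control replicate 1, with an adjusted p (edgeR) of 0.0605 and 0.0834 for control replicates 2 and 3 left out, 0.218, 0.189 and 0.0766 for shLMO2-1 replicates 1 to 3, and 0.127, 0.173 and 0.189 for shLMO2-2 replicates 1 to 3.

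IRF1, an interferon-induced activator that binds class I promoters, stood at 65.7, 65.0 and 62.2 CPM in control, at 55.3, 57.9 and 52.9 in shLMO2-1, and at 52.8, 50.9 and 44.5 in shLMO2-2. All hairpin libraries lay below all controls. IRF1 fell by 0.38 in shLMO2-2 (SE 0.078, adjusted p = 0.0141, edgeR) and by 0.30 in the mean of both hairpins (adjusted p = 0.016), and had −0.22 in shLMO2-1 (adjusted p = 0.117). The shLMO2-2 call was lost without shLMO2-2 replicate 3 (−0.32, adjusted p = 0.0541, edgeR).

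TYK2, a kinase of the type I interferon receptor, stood at 225, 241 and 244 CPM in control, at 264, 263 and 272 in shLMO2-1, and at 280, 266 and 288 in shLMO2-2. Unlike IFNGR1 and IRF1, its hairpin libraries were all above the controls. It rose by 0.23 in shLMO2-2 (adjusted p = 0.0308, edgeR) and by 0.20 in the mean of both hairpins (adjusted p = 0.0242), and had 0.17 in shLMO2-1 (adjusted p = 0.0919). The shLMO2-2 call was lost without control replicate 1 (0.0644) or 3 (0.0661), shLMO2-1 replicate 2 (0.0573) or any shLMO2-2 library (0.09, 0.0634 and 0.116 for replicates 1 to 3), and with only the groups compared (0.0753). The call in the mean was lost without control replicate 1 (0.0658) or 3 (0.0611), shLMO2-1 replicate 2 (0.0502), or shLMO2-2 replicate 1 (0.0503) or 3 (0.053). JAK2, a kinase of the interferon gamma receptor, had −0.45 and −0.25 and did not pass (adjusted p = 0.0522 and 0.253, edgeR). The factors that assemble with NLRC5 at class I promoters, RFX5, RFXAP, RFXANK, NFYA, NFYB, NFYC and CREB1, did not pass in any comparison.

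Of 12 class I-like molecules and stress ligands, 9 were tested. MICB, a stress ligand of the NKG2D receptor, stood at 25.9, 24.2 and 22.9 CPM in control, at 40.2, 35.8 and 38.0 in shLMO2-1, and at 32.4, 25.9 and 28.3 in shLMO2-2. The shLMO2-1 libraries were the highest and did not overlap with the others. MICB rose by 0.64 in shLMO2-1 (SE 0.099, adjusted p = 0.00335, edgeR) and by 0.45 in the mean (adjusted p = 0.0086), and had 0.25 in shLMO2-2 (adjusted p = 0.144). Between the hairpins the difference was −0.40 (adjusted p = 0.118, edgeR), which did not pass. HFE, a class I-like regulator of iron uptake, stood at 20.9, 14.9 and 16.5 CPM in control, at 12.7, 10.8 and 10.4 in shLMO2-1, and at 16.6, 14.3 and 11.1 in shLMO2-2. It fell by 0.62 in shLMO2-1 (adjusted p = 0.0477, edgeR), and had −0.32 in shLMO2-2 (adjusted p = 0.275). That call was lost without control replicates 1 (−0.48, adjusted p = 0.0994, edgeR) or 3 (0.0949), any shLMO2-1 library (0.0689, 0.147 and 0.149 for replicates 1 to 3) or shLMO2-2 replicate 2 (0.0774), with only the groups compared (0.0571) and with limma-voom (0.0665).

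Class II genes, which present peptides from outside the cell on antigen-presenting cells, were set beside the 9 for comparison. Of 8 listed, CIITA, the class II transactivator, and HLA-DMA were tested. HLA-DRB1 was at 0 in all libraries, and CD74 had at most 4 and HLA-DRA at most 2 counts in a library. HLA-DMA, an accessory of class II loading, was rare, with 19 to 76 counts a library. It stood at 3.48, 3.9 and 3.49 CPM in control, at 1.07, 2.17 and 1.38 in shLMO2-1, and at 2.09, 2.32 and 2.79 in shLMO2-2. Every hairpin library was below every control. It fell by 1.23 in shLMO2-1 (SE 0.271, adjusted p = 0.0196, edgeR) and by 0.91 in the mean of both hairpins (adjusted p = 0.0222), and had −0.59 in shLMO2-2 (adjusted p = 0.175). Leaving out control replicate 2 (adjusted p = 0.0557, edgeR) or 3 (0.0526), or shLMO2-1 replicate 1 (0.0674) or 3 (0.0731), ended the shLMO2-1 call, and leaving out control replicate 2 (0.0692) or 3 (0.0664) ended the call in the mean.

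**Figure D5:**
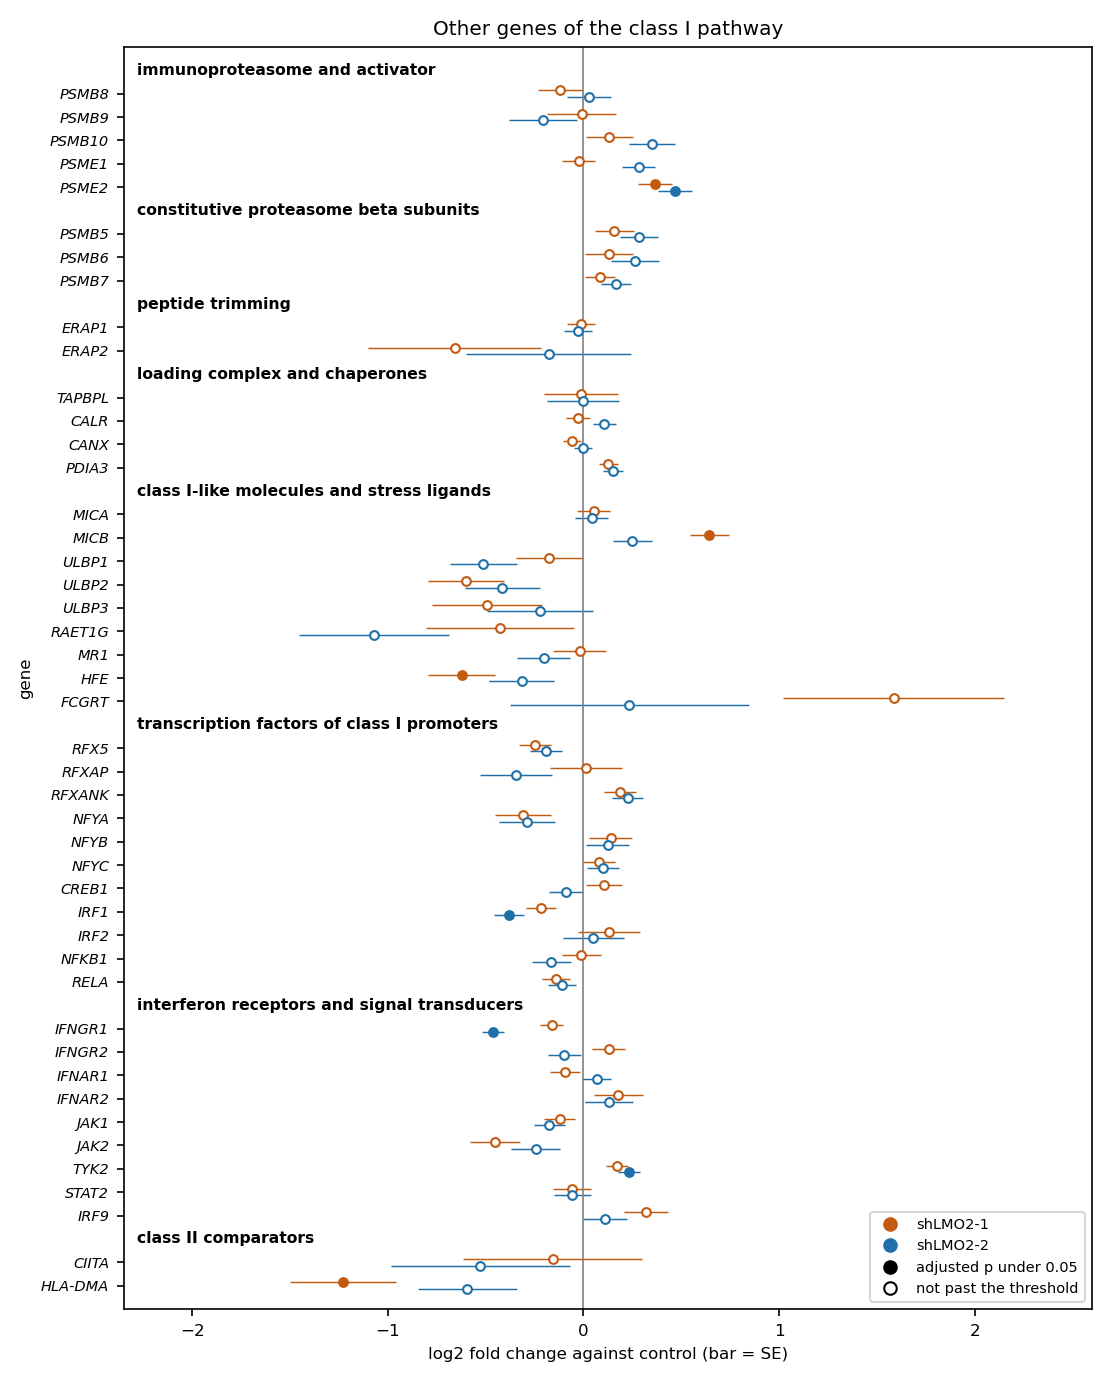
Log2 fold change against control, with the SE as bars, of further pathway genes tested, by role, for shLMO2-1 and shLMO2-2, with filled points for an adjusted p under 0.05. PSME2 is filled for both hairpins, and MICB, HFE and HLA-DMA for shLMO2-1 or IFNGR1, IRF1 and TYK2 for shLMO2-2.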

How the data were processed

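Polyadenylated RNA of 9 libraries was sequenced, 3 per group, and each library took its group from the plasmid in its labels. The authors deposited estimated counts per gene by symbol. Per the submitters' processing notes, Salmon 0.12, DESeq2 1.22.2 and GRCh38.p12 were used, with no role stated, and strand use is not given in the sources used here. Between 11.67% and 12.81% of a library's values were not whole, and all were rounded before testing. edgeR 4.0.16 (R 4.3.3) was run with TMM scaling and filterByExpr (minimum count 10, minimum total 15), with LMO2 added back, which left 14709 genes and 99.91% of the counts. All 9 libraries entered 1 quasi-likelihood fit by group, with 4 contrasts, p-values adjusted by Benjamini-Hochberg over all genes tested, and calls at an adjusted p under 0.05. SEs were derived from the F statistic, and intervals, nominally at 95%, were built from the SE with a normal distribution. With few libraries they are too narrow, so an interval can leave out 0 where the test does not pass. CPM uses TMM-scaled totals. Coordinates and lengths come from GENCODE 29 by symbol, and promoters from RefSeq. No 2 libraries of a group looked like a single library counted again (chi-square per gene 4.98 to 28.52 over 12366 genes). The genes, lists and tests were chosen with earlier results of these data known. The 9 genes and LMO2 were always named, as were pathway genes called in any contrast (up to 12, by p in the mean of both hairpins) and the 5 genes most like the 9. JAK2, PSME1, PSMB9 and other uncalled genes were named after their values were seen. Alternatives were other scalings, filters and tools (limma 3.58.1, DESeq2 1.42.0), a replicate block, only the groups compared, an adjusted p under 0.10, other transcript lengths, and leaving out each library. Values of 1 called pathway gene are not reported here.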

Additional observations from a re-analysis of the deposited data

Results flagged for a closer look

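IFNGR1, the ligand-binding chain of the interferon gamma receptor, differed between the hairpins by a direct test of that difference. Its log2 fold change from shLMO2-1 to shLMO2-2 was −0.299 (adjusted p = 0.0462, edgeR's quasi-likelihood test). Its 3 shLMO2-2 libraries lay at 172 to 180 CPM and its 3 shLMO2-1 libraries at 210 to 226 CPM. Among all genes tested, 0.768% were called in this comparison. The call was lost in 9 of the alternatives run, with upper-quartile scaling (adjusted p = 0.063, edgeR) and when any library but control replicate 1 was left out (adjusted p from 0.0605 to 0.218).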

How the results depend on the processing

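Of 938 refits of single genes (53 fold changes), 836 kept their direction and side of the threshold, 69 lost and 12 gained a call, and 21 changed sign, all of the last in values that did not pass. Only values called in the main fit could lose a call, and most of the 53 were not called. The 69 losses therefore fall on fewer refits, and their share of the 938 does not measure how robust the calls are. The TAP1 call in the mean of both hairpins held in all 17 settings, and the call for shLMO2-1 was lost in 6 and for shLMO2-2 in 5, among them the fit of only the groups compared (adjusted p = 0.052 and 0.057, edgeR). Of the 9 genes, no filter on low counts called 2 in shLMO2-1 (TAP1 and HLA-F) and 2 between the hairpins (HLA-B and HLA-F), only the groups compared called 0, 0 and 1, and DESeq2 called 1 between the hairpins. Leaving out a library gave 0 to 4 in shLMO2-1, 0 to 1 in shLMO2-2, 1 in the mean and 0 to 1 between the hairpins.

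Of the 46 pathway genes, only the groups compared called 2 in shLMO2-1 and 2 between the hairpins. DESeq2 called 7 in shLMO2-2, 12 in the mean and 3 between the hairpins, an adjusted p under 0.10 gave 9, 10 and 13 in shLMO2-1, shLMO2-2 and the mean, and between the hairpins upper-quartile scaling called 0 and no filter 3. Leaving out a library gave 1 to 8, 2 to 6, 4 to 9 and 0 to 2 in the 4 comparisons. Over all genes, where 1239, 1320, 1823 and 113 were called, only the groups compared called 695, 776 and 189 (no mean could be had from it), an adjusted p under 0.10 gave 2043, 2189, 2847 and 200, and between the hairpins no filter called 378 and DESeq2 316. Leaving out a library gave 546 to 1397, 494 to 1243, 947 to 1592 and 38 to 239. Total-count scaling turned the split of all calls to 561 higher against 781 lower (shLMO2-1), 568 against 833 (shLMO2-2) and 793 against 1284 (mean).

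Same-numbered libraries did not deviate together in every pair (r from −0.063 to 0.296 over 9 pairs, other pairs −0.308 to 0.182 over 18), and 5 of 9 libraries correlated best with their own number. Of the 9 same-numbered pairs, 6 had an r over 0.1. Since not each did, and the labels tie no number to a shared culture or day, the libraries were not treated as paired. With a replicate block, 2 of the 9 genes were called in shLMO2-1 (TAP1 and HLA-F), 2 in shLMO2-2 (TAP1 and HLA-C), 1 in the mean and 1 between the hairpins (HLA-F). The block called 9, 8, 15 and 2 of the 46 pathway genes and 2214, 2377, 3024 and 257 of all genes.

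Signs changed as follows. In shLMO2-1, B2M was −0.002 with upper-quartile and −0.029 with total-count scaling, and in shLMO2-2 NLRC5 was −0.02 with total-count scaling. Leaving out a library moved HLA-C between −0.151 and 0.015 in shLMO2-1 and between −0.015 and 0.15 in the mean, HLA-E between −0.146 and 0.018 and HLA-F between −0.004 and 0.222 in shLMO2-2, and B2M between −0.048 and 0.049 in shLMO2-1. It moved NLRC5 between −0.154 and 0.029, −0.05 and 0.132, and −0.102 and 0.081 in shLMO2-1, shLMO2-2 and the mean. Between the hairpins it moved TAP1 between −0.084 and 0.045 and TAP2 between −0.035 and 0.049. The cause of these shifts was not tested. The summed chains moved between −0.247 and −0.089 in shLMO2-1, −0.006 and 0.145 in shLMO2-2, −0.121 and 0.03 in the mean, and 0.18 and 0.283 between the hairpins.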
